A study of Mus musculus with 20 samples.

Results

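Homeobox genes of the Dlx, Msx, Irx, Lhx, Nkx, Pax, Meis and Pbx families and of the sine oculis family (Six2 and its relatives) were examined in mouse embryonic stem cells sorted into 3 states. The members were taken by symbol from the protein-coding genes of the RNA-seq table, leaving out Lhx1 and antisense names. This gave 56 of the 29692 genes listed and of the 18045 protein-coding genes, in 9 families: 13 Nkx, 8 Pax, 7 Lhx, 6 Dlx, 6 Irx, 4 Pbx, 3 Meis and 3 Msx genes, with 6 genes of the sine oculis family.

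The cells, pluripotent cells of the early embryo kept in culture, all grew in fetal bovine serum with leukemia inhibitory factor (LIF) and were separated by flow cytometry. By the levels of Nanog and Sox2, which maintain pluripotency, state 1 was high for both, state 2 was Nanog low and Sox2 high, state 3 was low for both, and the total population was not divided by state. Each group had 3 libraries of rRNA-depleted RNA, 12 in all, but the deposited table holds 1 normalized value per gene and group, so no spread between libraries can be given. The labels name no cell line or strain, nor whether each library was grown on its own. In the table, 1 read was worth 0.28 to 0.36 value units, so 3 reads correspond to 0.84 to 1.08 units. The sorted genes followed the labels: Nanog had 4145, 743 and 440.0 in states 1, 2 and 3, and Sox2 had 4155, 3167 and 1306. All 8 stem cell markers checked were above 0 in every group, with Pou5f1 (Oct4) at 13810.4, 10275 and 9826 and not called. Between the ends 5 of the 8 fell and none rose (median log2 -1.55), where 13.8% of protein-coding genes were lower. Among the 5 were Esrrb, from 9206 to 602, and Zfp42, from 4343 to 705. The 5 and the median also include Nanog and Sox2, whose fall follows from the sort.

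A homeodomain is a DNA-binding fold of helices encoded by the homeobox, and most members of these families carry one. Pax factors are defined by a separate paired domain, and Pax1 and Pax9 lack a homeodomain. Meis, Pbx and Irx factors share an enlarged homeodomain of the TALE class; Meis and Pbx proteins bind DNA together with Hox proteins. In the embryo most of these genes mark territories of the neural tube, somites, limbs, heart, gut or kidney. In pluripotent cells many of them are known as Polycomb targets with CpG-rich promoters, held at low expression.

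Values are normalized by the authors and are not divided by gene length, so levels are compared between groups and not between genes. A difference was called where the posterior probabilities of the authors' model that set 2 groups apart summed to 0.95 or more, and this sum is the summed score below. Log2 ratios were taken after adding 1 to each value, so changes of low genes are understated.

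Most members stood higher toward state 3. The median value over the 56 members was 2.41 in state 1, 7.76 in state 2, 10.9 in state 3 and 6.52 in the total population. By value alone, 33 members were higher at each state from 1 to 3, and 5 were lower at each (Nkx6-2, Nkx6-3, Pax6, Pbx4 and Six4). The highest state by value was state 3 for 35 members, state 2 for 13 and state 1 for 8. Between the ends alone, 46 of 56 members had the higher value in state 3. The same held for 14525 of 29692 genes and for 9016 of 18045 protein-coding genes. In such bulk samples, fewer cells that carry an RNA and less RNA per cell cannot be told apart. In state 1, 6 members (Dlx6, Irx6, Lhx8, Lhx9, Nkx2-6 and Pax9) were listed at 0, and none was at 0 in state 3. No share over all genes was taken for the orders over the 3 states or for values of 0.

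**Figure D1:**
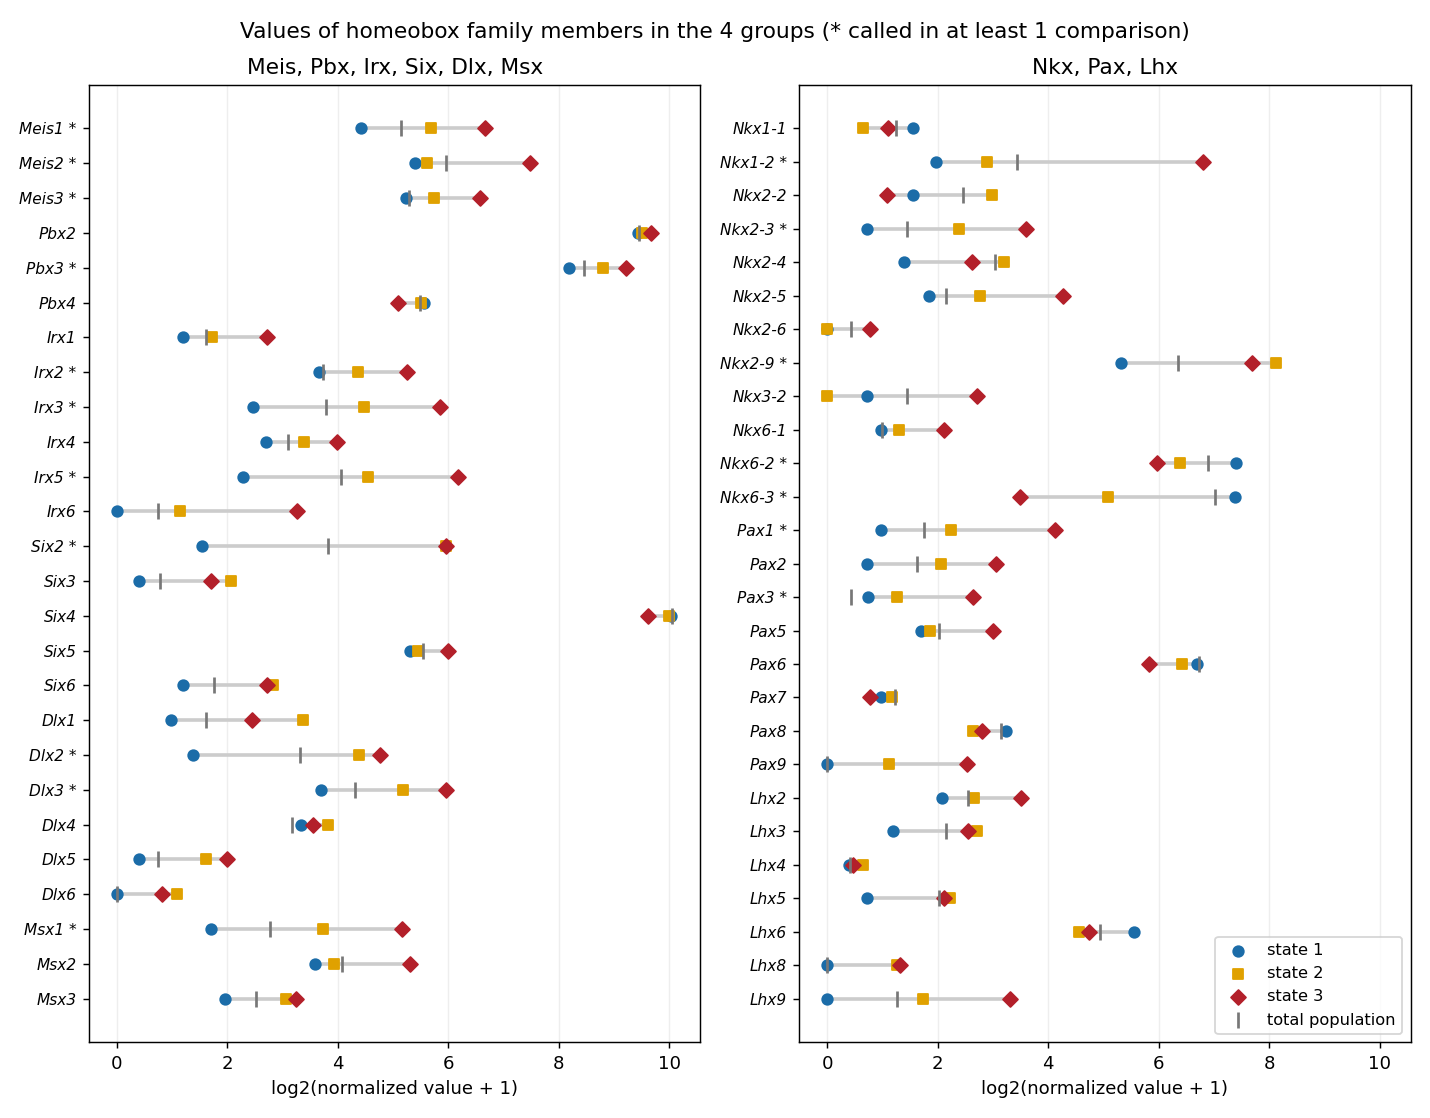
Values of 53 of the 56 members, as log2(normalized value + 1), in state 1 (circles), state 2 (squares), state 3 (diamonds) and the total population (bars); grey lines span the 3 states and an asterisk marks a member called in at least 1 comparison. State 3 is the rightmost state for 33 of those shown, and Nkx6-2 and Nkx6-3 run the other way.

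The comparison of state 2 with state 1 sets Nanog-low cells beside Nanog-high cells, both sorted as high for Sox2. Sox2 RNA was nonetheless called lower in state 2 (log2 -0.39). Here 11 of 56 members rose and 2 fell. Over all genes 7.11% were called higher and 6.33% lower, and over protein-coding genes 11.1% and 9.78%, against 19.6% and 3.57% of the members. The members' median log2 ratio was 0.93, beside 0 over all genes. The comparison of state 3 with state 2 sets Sox2-low beside Sox2-high cells, both Nanog low. Yet Nanog itself still fell at this step by log2 -0.76, a called difference, so its level was not held equal. Again 11 members rose and 2 fell, where 5.41% of all genes were higher and 3.19% lower (protein-coding genes 8.55% and 4.9%), with a median of 0.42 beside 0. Between the ends, state 3 against state 1, 18 members rose and 2 fell. The shares over all genes were 11.4% higher and 9.01% lower (protein-coding genes 17.7% and 13.8%), against 32.1% and 3.57% of the members, and the members' median was 1.38 beside 0. The 3 comparisons share their groups and are not independent of each other.

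In all, 21 members were called in at least 1 comparison. Of these, 5 rose at both steps, among them Irx5, Meis1, Msx1 and Pbx3. Another 5 rose from state 1 to state 2 and were not called after that, among them Dlx2, Dlx3, Nkx2-9 and Six2. A further 6 rose from state 2 to state 3 without a call at the first step (Irx2, Irx3, Meis2, Meis3, Nkx1-2 and Pax1). Nkx6-3 fell at both steps, Nkx6-2 fell at the first, and Nkx2-3 and Pax3 were called between the ends only. No share over all genes was taken for calls in at least 1 comparison or for these paths. The counts therefore describe the members and are not set against genes in general. Among the 20 members called between the ends, state 2 had covered a median of 0.588 of the way between the end states on the log2 scale, beside 0.603 for all 6070 genes so called. The range ran from 0.105 for Meis2 to 1.18 for Nkx2-9, whose state 2 value lay above that of state 3.

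**Figure D2:**
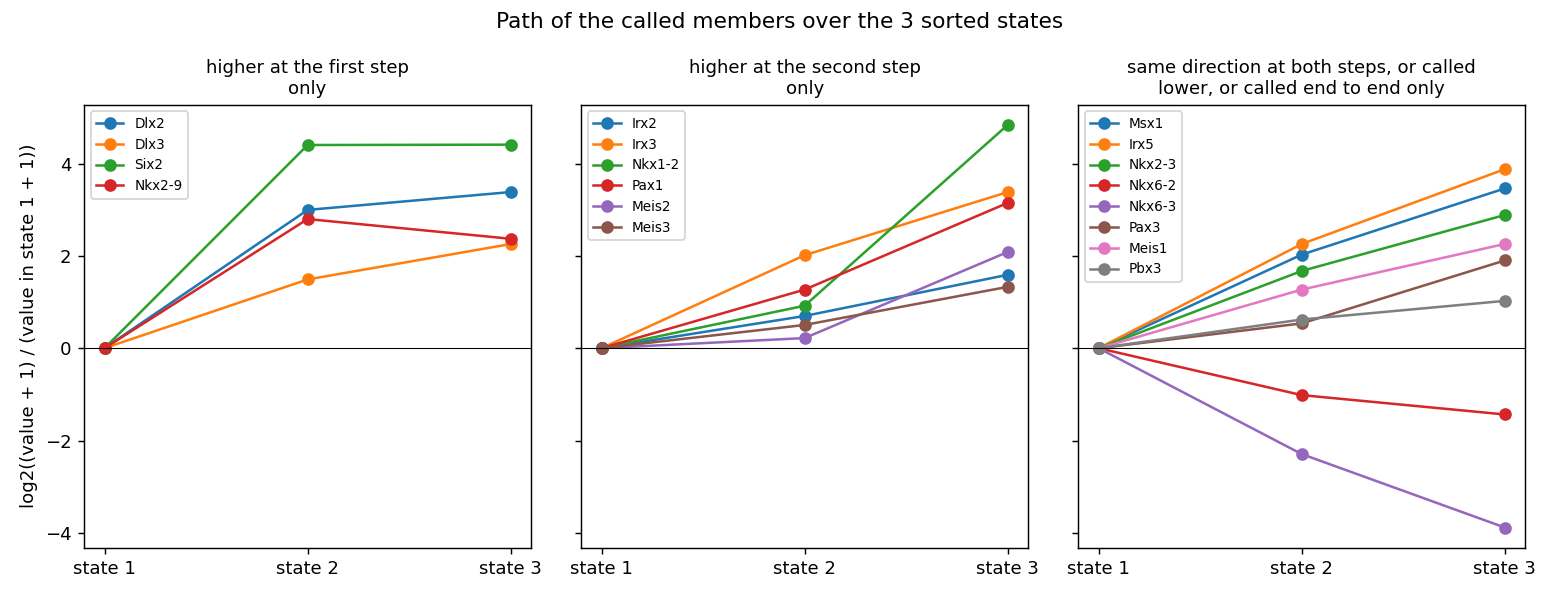
Path of 18 of the 21 called members over the 3 sorted states, as the log2 ratio of value plus 1 to that in state 1, 1 line per gene; left, members called higher from state 1 to state 2 only, middle, members called higher from state 2 to state 3 only, right, the others. Six2 reaches its full height in state 2 and Nkx1-2 gains most of its height in state 3.

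To show the start regions of genes with different paths, the 200 bases just before the RefSeq start site are given 5′ to 3′ on the gene's own strand, with every CpG in capitals. Six2 and Dlx2 were called at the first step, Irx3 and Nkx1-2 at the second and Msx1 at both, although by value Irx3 and Msx1 had covered alike shares of their rise by state 2 (0.596 and 0.586). Nkx2-3 was called between the ends only, Nkx6-2 fell, Pbx2 was not called and Lhx8 was near 0. All are from GRCm38.
Six2 (chr17:85688255-85688454, - strand): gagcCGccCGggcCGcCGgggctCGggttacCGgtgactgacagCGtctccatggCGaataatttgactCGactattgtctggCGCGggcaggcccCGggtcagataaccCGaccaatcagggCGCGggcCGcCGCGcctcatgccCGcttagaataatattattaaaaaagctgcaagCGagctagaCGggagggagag
Dlx2 (chr2:71546755-71546954, - strand): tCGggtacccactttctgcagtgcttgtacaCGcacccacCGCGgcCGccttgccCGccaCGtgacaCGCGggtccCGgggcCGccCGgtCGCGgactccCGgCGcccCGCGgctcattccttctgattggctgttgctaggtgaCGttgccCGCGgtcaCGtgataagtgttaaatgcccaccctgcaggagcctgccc
Nkx2-3 (chr19:43612125-43612324, + strand): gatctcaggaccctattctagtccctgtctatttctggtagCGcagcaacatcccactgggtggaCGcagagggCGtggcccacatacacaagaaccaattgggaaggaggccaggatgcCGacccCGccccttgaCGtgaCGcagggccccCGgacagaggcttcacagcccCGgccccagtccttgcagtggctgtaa
Msx1 (chr5:37824586-37824785, - strand): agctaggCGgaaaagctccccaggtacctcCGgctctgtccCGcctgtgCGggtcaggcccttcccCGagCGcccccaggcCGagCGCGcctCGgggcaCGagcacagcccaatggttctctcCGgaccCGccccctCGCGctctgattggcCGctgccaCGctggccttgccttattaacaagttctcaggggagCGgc
Irx3 (chr8:91801655-91801854, - strand): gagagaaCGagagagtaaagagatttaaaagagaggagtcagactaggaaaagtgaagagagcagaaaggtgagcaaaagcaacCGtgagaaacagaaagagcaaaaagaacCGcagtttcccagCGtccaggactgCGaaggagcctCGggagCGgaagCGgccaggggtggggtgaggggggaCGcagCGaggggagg
Nkx1-2 (chr7:132599638-132599837, - strand): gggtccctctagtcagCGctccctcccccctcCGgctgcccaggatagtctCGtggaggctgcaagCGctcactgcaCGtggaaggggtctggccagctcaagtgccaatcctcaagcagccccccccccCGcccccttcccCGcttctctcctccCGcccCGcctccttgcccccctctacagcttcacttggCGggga
Nkx6-2 (chr7:139582798-139582997, - strand): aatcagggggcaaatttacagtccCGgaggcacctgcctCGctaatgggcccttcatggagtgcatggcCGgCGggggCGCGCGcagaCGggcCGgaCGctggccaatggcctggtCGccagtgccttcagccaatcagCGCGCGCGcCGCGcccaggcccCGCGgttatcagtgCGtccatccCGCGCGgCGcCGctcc
Pbx2 (chr17:34592059-34592258, + strand): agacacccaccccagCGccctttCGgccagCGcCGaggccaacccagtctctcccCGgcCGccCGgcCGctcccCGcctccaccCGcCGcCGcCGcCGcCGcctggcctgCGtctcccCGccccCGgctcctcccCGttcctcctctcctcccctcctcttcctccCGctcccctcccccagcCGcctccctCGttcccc
Lhx8 (chr3:154330561-154330760, - strand): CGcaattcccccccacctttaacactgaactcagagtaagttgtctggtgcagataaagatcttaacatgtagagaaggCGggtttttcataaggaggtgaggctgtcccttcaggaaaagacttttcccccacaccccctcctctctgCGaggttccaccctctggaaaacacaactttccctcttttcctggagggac
CpG dinucleotides were dense before Nkx6-2, with 25 in 200 bases, before Dlx2 and Pbx2, with 22 each, and before Six2, with 21. Irx3 and Nkx1-2 had 10 each, and Lhx8 had 3. Both a falling gene and a gene that was not called thus stood among the CpG-dense promoters.

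Over the members as a whole, RefSeq promoter windows of 300 bases (250 before and 50 after the start, GRCm38.p6) were found for 41 of 56 members, 49 windows in all. Irx5, Nkx6-3, Pax3, Dlx3 and Pbx3 were among those without one. The ratio of CpG observed to expected from the C and G content had a median of 0.745 in the members, beside 0.384 in all 32851 windows and 0.674 in the 17093 windows of protein-coding genes of the table. A ratio of at least 0.6 was reached by 75.5% of member windows, 35.8% of all windows and 57.2% of protein-coding windows. Within the families the 12 windows of members that rose between the ends had a median of 0.677 and the 36 windows of members not called 0.754. The short motifs below were searched on both strands: TAATTA, a homeodomain core that is its own reverse complement, TGACAG, a Meis core, and TGATTG, a Pbx core. TAATTA was in 1 of 49 member windows (2.04%), that of Msx2, beside 5.29% of all windows. TGACAG was in 10 (20.4% beside 19.2%) and TGATTG in 7 (14.3% beside 14.04%). A TGACAG and a TGATTG match can overlap in part.

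**Figure D3:**
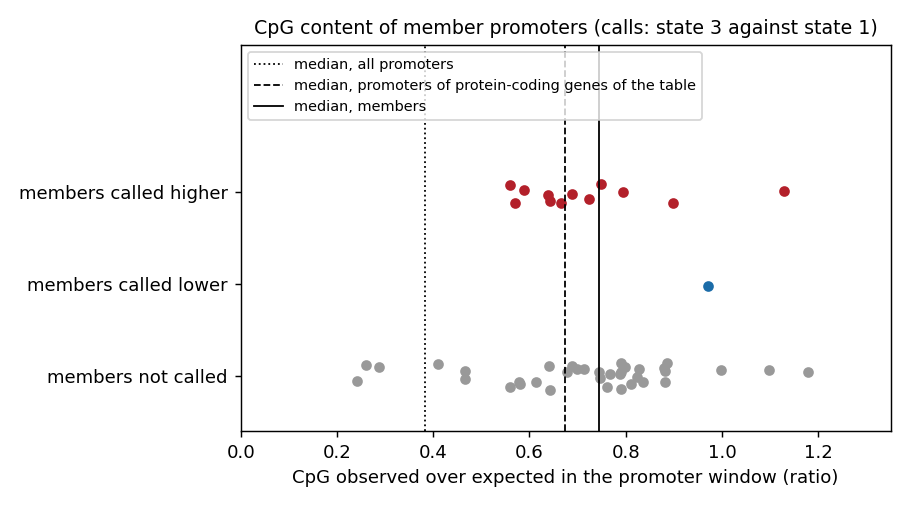
CpG observed over expected (x axis, ratio) in the 49 promoter windows of 41 members, 1 point per window, in rows by their call between state 3 and state 1 with vertical jitter only; lines mark the medians of all windows, of protein-coding windows and of the members. Windows of members that rose and of members that were not called overlap along the axis.

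Of the TALE cofactors Meis and Pbx, all 3 Meis genes rose between the ends. Meis1 (ENSMUSG00000020160.18, chromosome 11, 18880428 to 19019651 in GRCm38), a Hox cofactor of blood and limb, had 20.3, 50.3 and 101 in states 1, 2 and 3 and 34.4 in the total population. It rose at each step, by log2 1.27 and 0.99. Meis2 (chromosome 2, 115861264 to 116067537) had 40.9, 47.8 and 177, and 60.9 in the total population, so that its rise fell almost wholly in the second step (log2 0.22, not called, then 1.87). Meis3 had 36.6, 52.4 and 93.6, with a call at the second step (log2 0.83) and none at the first (log2 0.50, summed score 0.658). The summed value of the 3 genes was 97.8 in state 1, 150 in state 2 and 371 in state 3.

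Pbx3 (chromosome 2, 34171457 to 34372045), a DNA-binding partner of Meis and Hox proteins, had 289.7, 446 and 591 in the 3 states and 349 in the total population. It rose at each step by under 2-fold, log2 0.62 and 0.40. Pbx2 and Pbx4 were not called. Pbx2 had 689.7, 722 and 809.8, with a summed score of 0.874 between the ends. Pbx4 had 45.8, 44.2 and 33.0, with a score near 0.

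The Iroquois genes lie in a group of 3 on chromosome 8 and of 3 on chromosome 13, and act in neural, heart and limb patterning. All 6 had higher values at each state from 1 to 3, and 3 of them were called. Irx5 (ENSMUSG00000031737.11, chromosome 8, 92357796 to 92361456) had 3.88, 22.3 and 70.8, a rise of log2 2.26 and then 1.62, with 15.7 in the total population. Irx3 (chromosome 8, 91798511 to 91801654) had 4.51, 21.3 and 56.5, and 12.7 in the total population. Its first step (log2 2.01) was not called, with a summed score of 3e-06, and its second (log2 1.37) was. Irx2, on chromosome 13, had 11.6, 19.5 and 37.0. Its second step (log2 0.89) sat at the threshold with a score of 0.950253 and was lost at a threshold of 0.99, while its rise between the ends (log2 1.59) was kept. The members not called were Irx1 (1.28, 2.29 and 5.57), Irx4 (5.46, 9.45 and 14.7) and Irx6 (0, 1.2 and 8.53).

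Msx1 (ENSMUSG00000048450.10, chromosome 5, 37820491 to 37824585), a repressor induced by BMP in limb and craniofacial tissue, had 2.24, 12.2 and 34.7, and 5.83 in the total population. It rose at both steps, by log2 2.03 and 1.43. Msx2 had 11.0, 14.2 and 38.3 but a summed score of 0.0984 between the ends (log2 1.72), so it was not called. Msx3 had 2.89, 7.32 and 8.43 and was not called either. All 3 genes were highest in state 3.

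Dlx genes stand in pairs and act in the branchial arches, forebrain and skin appendages. Dlx2 (chromosome 2, 71543408 to 71546754) rose from 1.61 in state 1 to 19.8 in state 2 (log2 3.00) and had 26.2 in state 3. Its neighbour Dlx1, 9.43 kb away, had 0.96, 9.33 and 4.47 and was not called. Dlx3, a factor of placenta and epidermis, rose from 11.9 to 35.3 (log2 1.49) and had 60.7 in state 3, where the second step (log2 0.77) missed the threshold with a score of 0.946. Dlx4, 15.2 kb from Dlx3, had 9.06, 13.1 and 10.7. Dlx5 and Dlx6 stayed at or under 2.96 in every group. Only Dlx2 and Dlx3 of the 6 Dlx genes were called, in both cases higher.

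Proteins of the sine oculis family act with Eya cofactors. Six2 (ENSMUSG00000024134.11, chromosome 17, 85662736 to 85688254), a factor of nephron progenitors, rose from 1.92 in state 1 to 60.7 in state 2, a log2 ratio of 4.40. It stayed there in state 3, with 61.1, and had 13.1 in the total population. Its neighbour Six3, a forebrain and eye factor 36.5 kb away, had 0.32, 3.18 and 2.25 and was not called. Six4 had 1039.6, 1023 and 785.8, with a score of 0.928 between the ends, just outside the threshold. Six5 had 38.6, 42.7 and 62.6 (score 0.909) and Six6 had 1.3, 6.07 and 5.53.

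The 13 Nkx genes held both the largest rise toward state 3 and the only members that fell between the ends. Nkx1-2 (ENSMUSG00000048528.7, chromosome 7, 132596239 to 132599637), a gene of the caudal epiblast and tail bud, had 2.91 in state 1, 6.4 in state 2 and 111 in state 3. The second step was log2 3.92 and the total population had 9.87. Nkx2-9, a gene of the ventral neural tube, followed a different course, from 38.9 to 277 in state 2 (log2 2.80) and 205 in state 3. Nkx2-3, a gut and spleen factor, had 0.64, 4.23 and 11.1; its state 1 value is under the worth of 3 reads, and it was called between the ends only. Nkx2-5, the heart factor, had 2.57, 5.83 and 18.4 without a call.

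Nkx6-3 (ENSMUSG00000063672.7, chromosome 8, 23153271 to 23158948), a factor of the stomach and hindbrain, had 165 in state 1, 32.9 in state 2 and 10.2 in state 3, and 128 in the total population. It fell at both steps, by log2 -2.29 and -1.59. Nkx6-2 (chromosome 7, 139579376 to 139582797), a factor of the ventral neural tube and oligodendrocytes, had 168, 82.5 and 61.5, with 118 in the total population. It fell at the first step (log2 -1.02), while the second (log2 -0.42) had a score of 0.777. The third gene of this subfamily, Nkx6-1, had 0.97, 1.45 and 3.33 and was not called. For Nkx6-2, Inpp5a overlaps the gene by 277 bases and had 478, 592 and 602, moving opposite to it in value. Other protein-coding partners did not all do so. Mnat1, which overlaps Six4 by 1847 bases, had 447, 430 and 380, lower at each state like Six4. Slc25a21, which overlaps Pax9 by 191 bases, had 0, 1.13 and 7.75, higher at each state like Pax9. Elp4, which overlaps Pax6 by 1091 bases, had 230, 228 and 252.

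Of 8 Pax genes, 2 were called. Pax1 (chromosome 2, 147361930 to 147375049), a factor of the sclerotome, had 0.97, 3.75 and 16.5, with a call at the second step (log2 1.88). Pax3, a factor of the dorsal neural tube and muscle precursors, had 0.66, 1.41 and 5.20. It was called between the ends with a score of 0.975, and the call was lost at 0.99. Its state 1 value is under the worth of 3 reads, and that of Pax1 is near it. Pax6, the eye and neural factor, had lower values at each state, with 103, 84.2 and 55.6. Its score for any difference in the authors' deposited table was 0.000106, and it was not called. Pax2, Pax5, Pax7, Pax8 and Pax9 stayed between 0 and 8.39.

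None of the 7 Lhx genes, which encode LIM homeodomain factors, was called. Lhx6, a factor of cortical interneurons, had 46.1 in state 1, 22.6 in state 2 and 25.8 in state 3, a log2 ratio of -0.998 at the first step with a score near 0. Lhx2 had 3.20, 5.27 and 10.4, Lhx9 had 0, 2.33 and 8.88, and Lhx3, Lhx4, Lhx5 and Lhx8 had at most 5.55 in any group.

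**Figure D4:**
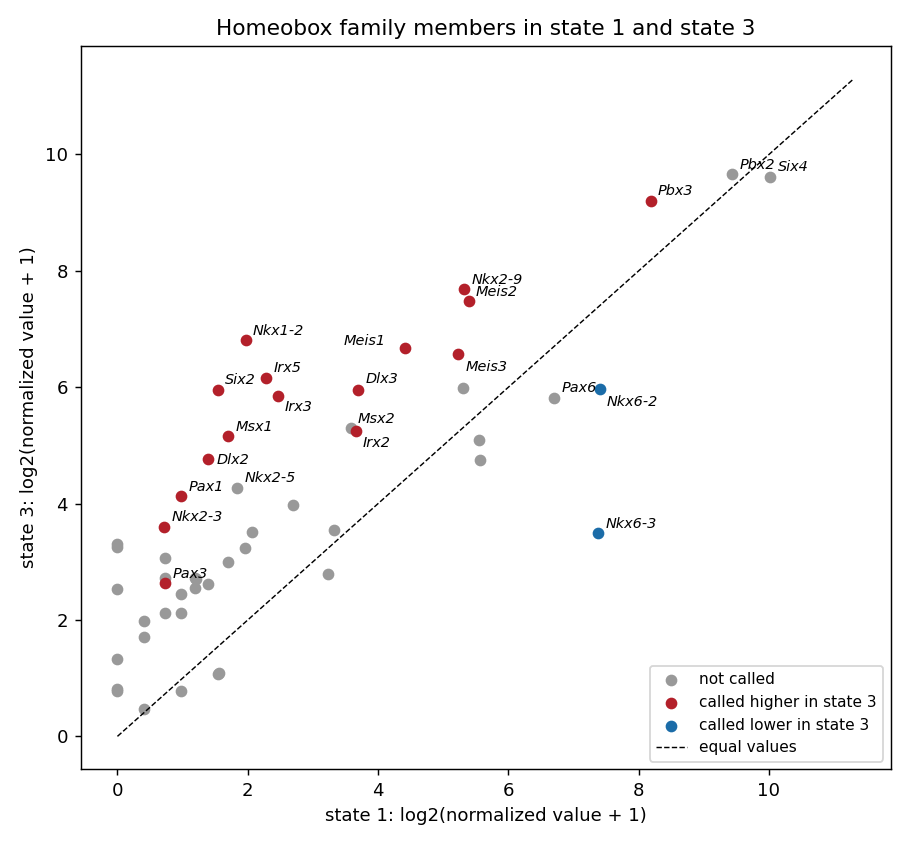
The same 53 members, each by its value in state 1 (x axis) and state 3 (y axis), both as log2(normalized value + 1); red and blue points were called higher and lower in state 3, grey points were not called, and the dashed line marks equal values. The 16 red points lie above the line and Nkx6-2 and Nkx6-3 below it.

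The 35 members called in no comparison were mostly low, with medians of 1.3, 5.23 and 5.57 in states 1, 2 and 3. By value, 27 of them were higher in state 3 than in state 1, which is not a call. Of the 35, 28 never reached a value of 20, the highest being Nkx2-5 at 18.4. Lhx4 and Nkx2-6 were at or under the worth of 3 reads in all 4 groups, where no difference could be seen at this depth. The authors' deposited table gave 23 of the 56 members (41.1%) a score for any difference under 0.001, beside 29.6% of protein-coding genes and 47.6% of all genes. Between the ends, Irx4, Lhx2, Msx2 and Nkx2-5 differed by at least 2-fold with a value of at least 10 and were not called.

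Among members that lie within 1000 kb of each other there were 15 neighbouring pairs, over 26 genes. In 11 pairs both genes had a higher value in state 3 than in state 1, and in none were both lower. Over all members, 46 of 56 had a higher value in state 3, so most pairs of any members would both be higher, and no co-movement of neighbours is read from this count. Both genes were called in 1 pair, Irx3 and Irx5, which are 556 kb apart. Pax1 rose while Nkx2-2, 166 kb away, had 1.92, 6.91 and 1.11. On chromosome 12, Nkx2-9 rose while Pax9, 78.1 kb away, had 0, 1.16 and 4.80 and was not called. Antisense genes named after a member were low: Dlx1as, Dlx6os1, Irx3os and Six3os1 had at most 2.95 in any group, and Dlx4os at most 4.1. The gene spans of 26 members overlap another RefSeq gene. As the sources do not say whether counting used strand, reads of such partners cannot be told apart.

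The total population lay between the lowest and the highest sorted state for 51 of 56 members, the exceptions being Dlx4, Pax3, Pax6, Pax7 and Six4. On the log2 scale it lay nearest to state 1 for 27 members, to state 2 for 23 and to state 3 for 6. Of the 20 members called between the ends it was nearest to state 1 for 11 and to state 2 for 9.

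Cofactors of the families were read from a list of 23 genes, all in the table. Of these, 6 rose and 3 fell from state 1 to state 2, 4 rose and 2 fell from state 2 to state 3, and 7 rose and 3 fell between the ends (median log2 0.33). Eya4, a phosphatase cofactor of sine oculis family proteins, rose from 0.65 to 10.2 and 29.7. Ssbp2, a partner of the LIM adaptor Ldb1, rose from 33.2 to 144 and 351. Ldb1 itself fell from 3052 to 1799 and 1299, and the corepressor Tle3 fell from 3056 to 2196 and 1665. Over protein-coding genes 11.1% were higher and 9.78% lower at the first step, and 8.55% and 4.9% at the second. Between the ends the shares were 17.7% and 13.8%, so calls in both directions are also found among genes in general.

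A list of 58 other homeobox genes, of which 55 were in the table, had 5 rises and 2 falls at the first step, the same counts at the second, and 10 rises and 4 falls among the 55 between the ends (median log2 0.45). Of protein-coding genes, 11.1% were higher and 9.78% lower at the first step, and 8.55% and 4.9% at the second. Between the ends 17.7% were higher and 13.8% lower, so the share of rises in the list lies near that of genes in general. Isl1, a LIM homeodomain factor of heart and motor neurons, had 0.33, 6.4 and 24.8 and rose at the first step. The TALE gene Pknox2 had 70.3, 51.1 and 254 and rose at the second step, whereas its relative Pknox1 had 468, 373 and 276 and fell there. Hesx1, a factor of the anterior neural ridge and epiblast, fell from 34.3 to 8.99 at the first step and had 4.48 in state 3.

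Signals known to act upstream of these families were read from 21 genes. Of these, 4 rose and 5 fell at the first step, where 11.1% of protein-coding genes were higher and 9.78% lower. At the second step 3 rose and 3 fell, where the shares were 8.55% and 4.9%. Between the ends 4 rose and 6 fell, where 17.7% of protein-coding genes were higher and 13.8% lower. Bmp4, an inducer of Msx and Dlx genes, fell from 569 to 103 and had 155 in state 3, whereas Bmp2 had 0.64, 5.26 and 37.4 and rose at the second step. Of the Hedgehog genes, Gli2 fell from 3690.3 to 838 and 573, Gli1 had 1847, 1919 and 599 and fell at the second step, and Ptch1, the receptor, had 5342, 14567 and 5864. Gli3, named after its values were seen, went the other way and rose at both steps, with 349, 859.6 and 1395. Crabp2, a retinoic acid carrier, rose from 27.8 to 77.7 and 204.

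Markers of other cell types moved beside these genes. For the counts below, 17.7% of protein-coding genes were higher and 13.8% lower between the ends. These shares were 11.1% and 9.78% at the first step and 8.55% and 4.9% at the second. Of 11 feeder fibroblast markers in the table, 2 rose and none fell at the first step, and 6 rose and 1 fell both at the second step and between the ends. Their summed value was 27175, 25138 and 19717 in states 1, 2 and 3, of which Fn1 alone made 27060, 24793 and 17691, which fell at the second step. Among those that rose were Col1a1 (23, 107 and 827), Acta2 (11.4, 123 and 763), Col3a1 (2.61, 21.4 and 167) and Col1a2 (2.92, 15.9 and 83.0). The defining markers Dcn (0, 2.09 and 12.4) and Lum (0.32, 0 and 1.46) were not called. Primitive endoderm markers rose in 6 of 8 cases between the ends (sums of 139.8, 399.9 and 992). Among 7 neural progenitor markers, which include Pax6, 1 rose, Nes, from 248 to 5446 (sums of 1706, 2734 and 6745). Among 8 mesoderm markers 2 rose, Hand1 and Gata4, of which Gata4 is also counted among the primitive endoderm markers. The mesoderm sums were 1391, 848 and 874, with Hand2 at 0 in states 1 and 2 and Tbx5 at 0 in state 3. Among 8 surface ectoderm and trophectoderm markers 3 rose and 2 fell (sums of 1420, 974 and 978, with Krt5 at 0 in state 1). The part of such cells in the values of the members was not tested.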

How the data were processed

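RNA-seq of 12 libraries in 4 groups was analysed. Per the submitters' processing notes, STAR 2.4.1d and RSEM 1.2.30 were used with the builds mm10 and GRCm38. The scaling and merging of libraries, and the use of strand in counting, are not given in the sources used here. The authors deposited a normalized signal per gene and group, and, as a score between 0 and 1, the posterior probability of 15 ways in which the 4 groups can be equal or differ (EBSeq, per the deposited table's name).

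The order of the patterns is not spelled out and was taken as that of EBSeq for state 3, state 2, state 1 and total population. Over 1453 genes whose best pattern scored 0.95 or more (mean value 5 or more), the groups it joins lay closer together than the groups it parts in 100% of cases, and in 96.6% with state 1 and the total population exchanged. Scores of patterns that part 2 groups were summed and called at 0.95, with the direction from the values. The code of the sums was run on made-up scores whose pattern was set beforehand. Such a run checks the arithmetic only, and says nothing about the assumed pattern order, the directions or the calls.

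The count tests foreseen need values per library and were left out, so no p-value is given. Named members were those called, or with a value of at least 20 in a group. Members and lists were chosen with earlier results of these data known. Coordinates and promoters are RefSeq, GRCm38.p6, matched by symbol (56 and 41 of 56 members). In 1629 of 1629 overlapping window pairs on opposite strands the sequences were reverse complements. The value found most often among the low values of each column was taken as the worth of 1 read, a measure of depth that covers counting error only. Python 3.11.15, numpy 2.4.6, pandas 2.3.3 and matplotlib 3.10.9 were used. Counts cover all members and list genes, but some single genes are not reported here.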

Additional observations from a re-analysis of the deposited data

Results flagged for a closer look

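In the small RNA table of the same states, which the comparisons above do not use, 46 genes of these families are listed and 42 of them stay under 5 value units in every group. Pax7 stands apart: it had 101.94 in state 1, beside 0.74 in the total population and 0 in states 2 and 3, and it was the only one of the 46 whose score for any difference in the authors' deposited table reached 0.95. In the RNA-seq table the same gene had 0.97, 1.24 and 0.71 in states 1, 2 and 3 and was not called. Which of the 2 small RNA libraries of state 1 holds the reads cannot be read from 1 value per group, and the cause was not tested.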

How the results depend on the processing

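The counts of members that rose or fell stayed within 1.5 times under thresholds of 0.90 and 0.99, the exchange of state 1 and the total population in the pattern order, a 2-fold call among values of 10 or more, and a filter on a mean of 5, with 1 exception: at 0.99 the falls from state 2 to state 3 went from 2 to 1, which leaves Nkx6-3. The exchanged order lost the first step of Irx5, Meis1 and Msx1. The 2-fold rule lost Pbx3 at both steps, Irx2, Meis1 and Meis3 at the second and Pax3 between the ends. It added Irx3 at the first step, Msx2, Nkx2-3 and Nkx2-5 at the second, and Irx4, Lhx2, Msx2 and Nkx2-5 between the ends. With a pseudocount of 5 the median log2 ratio of the members was 0.46 at the first step and 0.76 between the ends. Upper quartile rescaling moved the median gene, over genes with a mean of 5 or more, to 0.11, -0.10 and 0.0099 in the 3 comparisons, and quantile rescaling to -0.041, -0.059 and -0.10. No called member changed sign under either rescaling or pseudocount. No paired analysis was possible because the table holds 1 value per group, and for the same reason no library could be left out.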
